A study of Mus musculus with 13 samples.

Results

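Gene expression in the mouse aorta around subjective dusk was compared with expression around subjective dawn, across all genes of a one-colour short-oligonucleotide array. The dusk group held the 4 pools named CT34, CT38, CT58 and CT62, which lie at circadian times 10 and 14, and the dawn group held CT22, CT26, CT46 and CT50, at circadian times 22 and 2. These are 8 of the 12 pools of the series (13 arrays, since CT18 has 2). Pools at circadian times 6 and 18 were left out, and the choice rests on the time labels and on no measured value.

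All mice were c57/Bl6, an inbred laboratory strain, and the labels name no treatment in either group beyond the lighting. Animals of both groups spent 2 weeks under a cycle of 12 h light and 12 h dark, followed by 36 h of constant darkness, and pools were then collected 4 h apart over 48 h. Dusk and dawn here are therefore subjective, meaning hours of the animals' internal day without a light signal. Each pool was the aortae of 6 mice, with 1 array per pool used here although the labels speak of duplicate arrays, so each group has 4 pools from 2 successive cycles (CT22 to CT38, then CT46 to CT62). Age and sex are not given in the labels used here. P-values measure the spread between single pools, which includes both time of day within a group and dissection.

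The circadian clock of mammalian cells is a feedback loop of transcription. Clock and Bmal1 (gene Arntl) activate E-box promoters, among them those of the Per and Cry genes, whose proteins then repress this activation. The REV-ERB receptors Nr1d1 and Nr1d2 repress Arntl through ROR elements, and the PAR bZIP factors Dbp and Tef compete with the repressor Nfil3 for D-box sites in output genes. In blood vessels the loop is known to run in smooth muscle, endothelium and the fat around the vessel.

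To show some of these sequences next to clock genes, and next to the lipid gene Acly, promoter windows from RefSeq were searched on both strands. The windows (mouse assembly GRCm38.p6) ran from 250 bases before to 50 bases after each annotated start. Printed here are short stretches before the start, 5′ to 3′ on the strand of the gene, with the match in capitals. The first 4 hold the E-box CACGTG, at chr15:81802520-81802577 and chr15:81811250-81811307 (Tef, which has 2 annotated starts, plus strand), chr11:69098757-69098814 (Per1, plus strand) and chr10:85185083-85185140 (Cry1, minus strand).
Tef, first start: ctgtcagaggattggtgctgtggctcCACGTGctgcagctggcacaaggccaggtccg
Tef, second start: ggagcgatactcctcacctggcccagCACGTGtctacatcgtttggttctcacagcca
Per1: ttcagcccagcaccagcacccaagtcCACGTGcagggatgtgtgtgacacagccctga
Cry1: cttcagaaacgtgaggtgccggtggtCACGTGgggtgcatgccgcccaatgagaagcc

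The next 4 hold AGGTCA, the hexamer of a ROR element, or its reverse complement TGACCT, at chr14:18239152-18239209 (Nr1d2), chr5:76303590-76303647 (Clock), chr13:52981040-52981077 (Nfil3) and chr11:100528009-100528066 (Acly), all on the minus strand.
Nr1d2: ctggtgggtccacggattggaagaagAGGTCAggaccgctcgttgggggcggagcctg
Clock: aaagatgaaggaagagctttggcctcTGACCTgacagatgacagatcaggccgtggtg
Nfil3: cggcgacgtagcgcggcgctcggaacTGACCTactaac
Acly: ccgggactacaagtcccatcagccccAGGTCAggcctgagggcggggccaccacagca

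The last 2, at chr4:151044837-151044896 and chr4:151044790-151044849 (minus strand), hold a D-box, TTANGTAA, and both belong to Per3.
Per3, upstream match: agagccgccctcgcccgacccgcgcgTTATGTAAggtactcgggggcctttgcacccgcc
Per3, downstream match: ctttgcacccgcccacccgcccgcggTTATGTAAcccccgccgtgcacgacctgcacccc

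Such matches are common and are a description of the letters, not of a bound site. Of the 4522 tested genes with a promoter in the table, 12.2% held the E-box, 15.9% the AGGTCA hexamer and 1.9% the D-box. Among the 12 tested clock genes in the table, 3 held the E-box (Cry1, Per1 and Tef) and 5 the hexamer (Arntl, Clock, Nfil3, Nr1d2 and Per1).

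The pools were alike in the measures of array quality. The median intensity of an array was 70.4 to 79.8 at dusk and 73.3 to 84.7 at dawn, and each array had 21.3% to 23.6% of its values at 0 or less. Values under a floor of 36.7 were raised to it before the log2 scale was used, and 7453 probe sets (5655 genes) passed a filter on low means. The ratio of 3′ to 5′ signal of actin was 1.64 to 1.93 at dusk and 1.77 to 2.21 at dawn. As a check of the tissue, Acta2, the actin of smooth muscle, was bright in every pool (4188 to 6848), and the summed intensity of 15 smooth muscle genes was 17909 to 22465 at dusk and 20539 to 24398 at dawn. Skeletal muscle markers stood apart in CT34 and CT58 (summed intensity 38089 and 25882, against 9167 to 18621 in the other 6 pools). Atrial markers stood apart in CT38 (18130, against 9071 to 12031 in the others). These pools are all in the dusk group, and CT34 and CT58 are both of its pools at circadian time 10. Dawn pools were uneven in other lists. Thymocyte markers were lowest in CT26 (1881, against 3562 to 7977 in the other pools). Lung and oesophagus markers were lowest in CT46 (3415, against 4525 to 15867). Of 93 named genes, the difference of 29 turned in sign or moved by over 1.5 times without CT34 and CT58, and of 5 without CT38. Such values are given beside the genes or with the tissue markers.

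Over all genes, few differences between dusk and dawn passed the adjusted threshold. Of 7453 probe sets, 2 passed an adjusted p of 0.05 (0.0268%; limma's moderated test, Benjamini-Hochberg adjustment, two-sided), 1 higher at dusk (0.0134%) and 1 lower (0.0134%). At an unadjusted p under 0.05 there were 675 probe sets (9.06%), 264 higher at dusk (3.54%) and 411 lower (5.51%). In 358 probe sets (4.80%) the groups did not overlap, so that all 4 dusk pools lay above all 4 dawn pools (125, or 1.68%) or below them (233, or 3.13%). The share of higher calls depended on scaling. It was 39.1% of the probe sets at an unadjusted p under 0.05 in the deposited values, 48.1% after quantile normalization and 57.3% with arrays centred on their medians. Of all 5655 genes 57.8% had a difference below 0, with a median of -0.04 (log2). Counts of members in the lists are to be read beside these shares: at an unadjusted p under 0.05, 8.82% of all genes were called, 3.50% higher at dusk and 5.32% lower.

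The probe set that was lower at dusk measures Zbtb45, a zinc finger and BTB domain protein. Probe set 162290_f_at read 274, 295, 616 and 251 in the dawn pools (CT22, CT26, CT46 and CT50, the order used throughout) and 44.1, 45.7, -20.1 and -17.2 in the dusk pools (CT34, CT38, CT58 and CT62). Every dawn pool was far above every dusk pool, and 2 dusk pools lay at the floor. The difference was -3.04 ± 0.29 (log2, SE, n = 4 and 4; adjusted p = 0.00995), and it was -2.66 in the first cycle and -3.42 in the second. The other Zbtb45 probe set, 96535_at, was near the floor in all pools (21.7 to 61.6) and differed by 0.07 (adjusted p = 0.957). Without CT58 the adjusted p of 162290_f_at was 0.0614, and without CT62 it was 0.0680. With skeletal muscle markers as a covariate it was 0.0552, with atrial markers 0.225, and with lung and oesophagus markers 0.129, at differences of -3.14, -3.16 and -2.66.

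The probe set that was higher at dusk, 104745_at, has no gene in the annotation table used here. It read 419, 404, 365 and 406 at dawn and 708, 914, 844 and 689 at dusk. All dusk pools were above all dawn pools, by 0.98 ± 0.12 (log2, SE; adjusted p = 0.0450). The difference was almost the same in both cycles (0.97 and 0.99). In the fits that left out 1 pool it stayed between 0.90 and 1.04, with an adjusted p of 0.0590 to 0.127, so the call needs all 8 pools.

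The clock genes with the largest differences were repressors and outputs that were higher at dusk, but none passed the threshold over all probe sets in the deposited values of the 8 pools. After quantile normalization of the same pools Per2 passed, together with Fdps and Cyp2e1. Nr1d2 (99076_at), a REV-ERB receptor, read 47.9, 89.0, 21.4 and 113 at dawn and 395, 208, 489 and 235 at dusk. All dusk pools were above all dawn pools, and within the dusk group the pools at circadian time 10 were the higher ones. The difference was 2.27 ± 0.40 (log2, SE, n = 4 and 4; adjusted p = 0.165). It was 3.39 between circadian times 10 and 22, and 1.14 between 14 and 2. Its promoter window with the AGGTCA hexamer is printed above.

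Per2 (93694_at), a repressor of the Clock and Bmal1 pair, read 63.1, 6.17, 35.4 and -0.42 at dawn and 127, 228, 148 and 188 at dusk. The groups did not overlap, and 3 dawn pools lay at the floor. The difference was 2.00 ± 0.28 (adjusted p = 0.0665). In contrast to Nr1d2, the difference was larger between circadian times 14 and 2 (2.50) than between 10 and 22 (1.51). Per1 (93619_at), another Per repressor, read 110, 55.7, 118 and 17.8 at dawn and 215, 192, 246 and 52.5 at dusk. Its groups overlapped through CT62, and its difference of 1.08 ± 0.54 had an adjusted p of 0.576. The difference of Per1 was 0.48 without CT34 and CT58, 0.64 with skeletal muscle markers as a covariate, 0.67 with atrial markers and 2.03 with lung and oesophagus markers.

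The remaining 5 repressors measured had small differences. Values were -0.06 ± 0.18 for Per3, -0.13 ± 0.34 for Cry1, -0.19 ± 0.26 for Cry2, -0.20 ± 0.35 for Nr1d1 and -0.18 ± 0.39 for Bhlhe40 (log2, SE). Their adjusted p ran from 0.848 to 0.937. For each of them leaving out some pools or adding a marker covariate turned the sign, and centring arrays on their medians moved Per3 to 0.0015. Cry1 and Nr1d1 did vary within the groups. Cry1 read 394 and 312 at circadian time 22 but 235 and 142 at circadian time 2, and 154 and 196 at circadian time 10 but 339 and 282 at circadian time 14. Without CT34 and CT58 the difference was -0.00073 for Per3, 0.29 for Cry1 and -0.68 for Nr1d1. Without CT38 it was -0.21 for Per3, -0.31 for Cry1 and 0.14 for Bhlhe40.

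Of the 8 repressors tested, 2 were higher at dusk at an unadjusted p under 0.05, beside 3.50% of all 5655 genes, and 0 were lower, beside 5.32%. The groups of 2 members did not overlap with dusk higher, beside 1.75% of all genes in that direction and 5.08% in either. The median difference of the list was -0.10, beside -0.04 over all genes.

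Arntl (102382_at), the gene of Bmal1, was the activator with the largest difference, and it lay the other way. It read 274, 159, 308 and 150 at dawn and 74.0, 160, 45.5 and 88.3 at dusk. The dusk value of CT38 was within the dawn range, so the groups overlapped. The difference was -1.35 ± 0.39 (adjusted p = 0.393), made up of -2.32 between circadian times 10 and 22 and -0.38 between 14 and 2. Clock (92257_at), its partner, differed by -0.31 ± 0.20 (adjusted p = 0.655), and Rora, a receptor that activates through ROR elements, by 0.12 ± 0.21 (adjusted p = 0.888). Without CT34 and CT58 the difference was -0.84 for Arntl, 0.0066 for Clock and 0.04 for Rora. Npas2 was on the array but did not pass the filter on low means.

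The factors that bind the D-box were the clock list in which each tested member was past an unadjusted p of 0.05 (3 of 3, beside 8.82% of all genes). Dbp (160841_at), a PAR bZIP activator, was below 0 in all 4 dawn pools and read 442, 34.2, 445 and 70.7 at dusk. It was highest at circadian time 10, and CT38 lay at the floor like the dawn pools. With these 5 pools set to the floor the difference was 2.03 ± 0.75 (adjusted p = 0.490). It was 1.51 to 2.71 without 1 pool and 0.47 without CT34 and CT58.

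Tef (160117_at), another PAR bZIP activator, read 226, 208, 52.1 and 223 at dawn and 689, 434, 695 and 682 at dusk. Its groups did not overlap, with a low pool in each (CT46 at dawn and CT38 at dusk). The difference was 2.00 ± 0.44 (adjusted p = 0.247), or 4.01-fold. Nfil3 (101805_f_at), the repressor at the same sites, read 318, 228, 285 and 270 at dawn and 52.3, 95.3, 36.7 and 214 at dusk. All dusk pools were below all dawn pools (-1.79 ± 0.47, adjusted p = 0.341). It was -0.93 without CT34 and CT58. A further Nfil3 probe set, 102955_at, had overlapping groups and differed by -0.53 (adjusted p = 0.734).

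Among kinases, ubiquitin ligase adaptors and other partners of the clock, 3 of 9 tested were higher at dusk at an unadjusted p under 0.05 and 0 were lower (beside 3.50% and 5.32% of all genes), and the median was 0.20. Usp2, a ubiquitin-specific protease that acts on clock proteins, read 187, 162, 179 and 121 at dawn and 324, 277, 340 and 267 at dusk by probe set 92821_at. All dusk pools were above all dawn pools, by 0.91 ± 0.18 (adjusted p = 0.195). Its other probe set, 92820_at, did not overlap either and differed by 2.36 (adjusted p = 0.0999), with 2 dawn pools at the floor, so that this size depends on the floor. Nampt, which makes a precursor of NAD, read 500, 525, 433 and 278 at dawn and 540, 952, 728 and 1062 at dusk. The lowest dusk pool was just above the highest dawn pool, and the difference was 0.91 ± 0.25 (adjusted p = 0.365). The third was Gsk3a, a kinase of clock proteins (0.27 ± 0.11, adjusted p = 0.519), at 0.17 without CT34 and CT58.

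**Figure D1:**
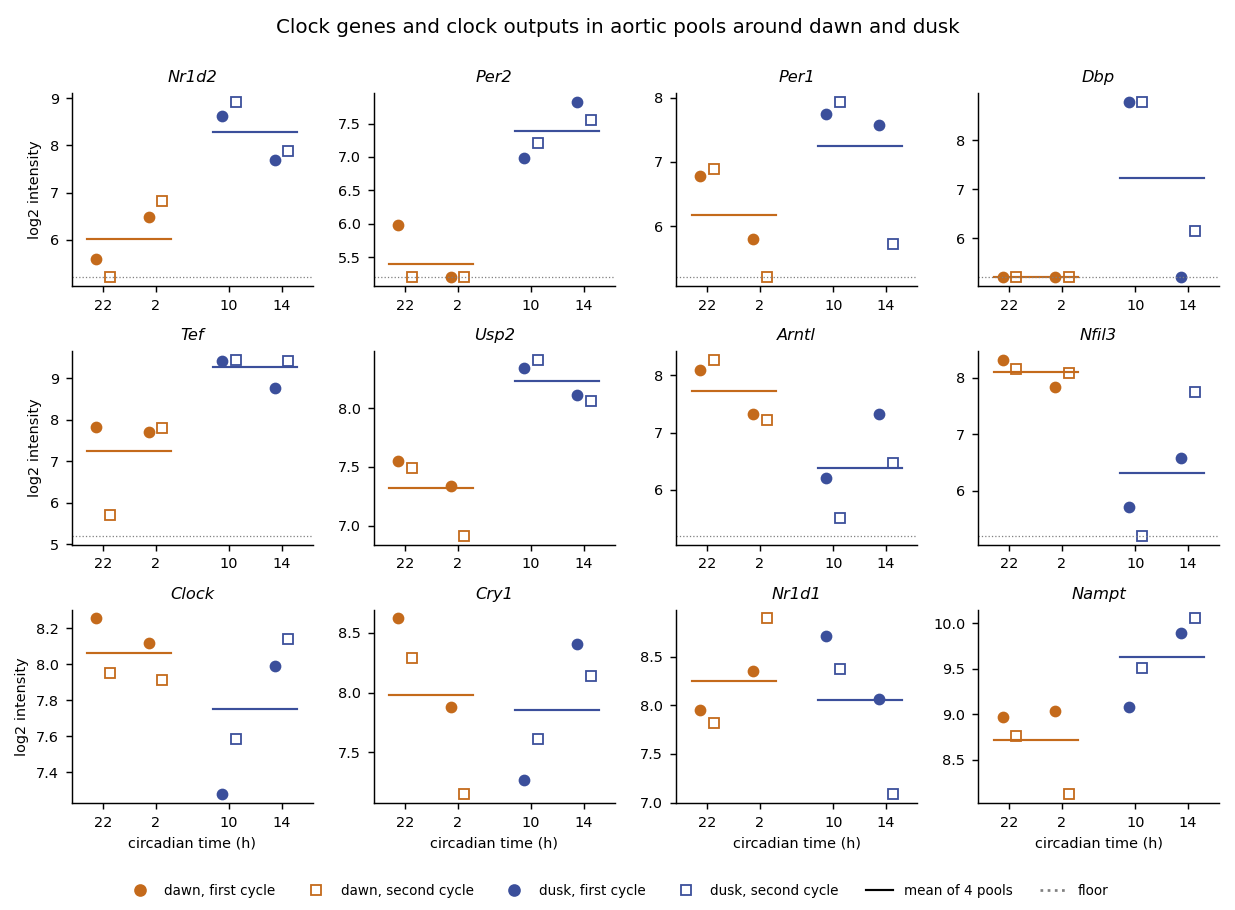
Log2 intensity of 12 clock and clock-linked genes in each of 4 dawn pools (circadian times 22 and 2, orange) and 4 dusk pools (10 and 14, blue), with circles for the first cycle, squares for the second, lines at the group means and the floor dotted; the vertical axis differs between panels. Nr1d2, Per2, Tef, Usp2, Nampt and Nfil3 have groups that do not overlap, while Per1, Dbp, Arntl, Clock, Cry1 and Nr1d1 overlap.

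A fit that used all 12 pools and gave each circadian time its own mean passed more genes. In that fit a difference between circadian times 10 and 14 is not part of the spread. It passed 16 probe sets, 7 higher and 9 lower at dusk, with the same differences as above. Nr1d2 then had an SE of 0.19 and an adjusted p of 0.00312, and Per2 and Dbp passed with 0.0308 each. Among metabolic and matrix genes, Fdps and Eln passed with 0.0308 each, and Acly passed with 0.0362. Tef, Arntl, Nfil3, Per1 and Clock passed the threshold in neither fit.

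Several enzymes of cholesterol synthesis lay lower at dusk. Of 12 tested, 4 were lower at an unadjusted p under 0.05 and 0 were higher (beside 5.32% and 3.50% of all genes). The groups of the same 4 did not overlap (beside 3.32% of all genes lower at dusk without overlap). The median of the list was -0.31, and it was below 0 in all 26 alternatives tried. Fdps (160424_f_at), which makes farnesyl diphosphate, read 864, 804, 775 and 1007 at dawn and 510, 457, 455 and 518 at dusk. Every dusk pool was well below every dawn pool, by -0.83 ± 0.11 (log2, SE; 1.77-fold, adjusted p = 0.0665). A second Fdps probe set, 99098_at, did not overlap either (-0.75, adjusted p = 0.247).

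Nsdhl, a sterol dehydrogenase that removes methyl groups from the ring, read 437, 465, 420 and 457 at dawn and 255, 250, 315 and 282 at dusk (98631_g_at). The dawn pools lay within a narrow range and the dusk pools below it, at -0.70 ± 0.12 (adjusted p = 0.158). Probe set 93868_at of Nsdhl gave -0.94 (adjusted p = 0.0683) and 98630_at gave -0.40 (adjusted p = 0.534). Idi1, which isomerises isopentenyl diphosphate, read 298, 304, 386 and 364 at dawn and 195, 194, 209 and 256 at dusk, a difference of -0.66 ± 0.16 (adjusted p = 0.281). Lss, the enzyme that closes the ring to lanosterol and named after its values were seen, was 95.7 to 144 at dawn and 45.3 to 64.0 at dusk (-0.98 ± 0.23). Not every enzyme of the pathway lay that way, as Msmo1 differed by 0.47 ± 0.45, Fdft1 by 0.03 ± 0.32 and Hmgcs1 by -0.26 ± 0.29.

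In fatty acid and triglyceride synthesis 4 of 15 genes were lower at dusk and 1 was higher at an unadjusted p under 0.05 (beside 5.32% and 3.50% of all genes), with a list median of -0.10. Acly (160207_at), which makes cytosolic acetyl-CoA for both pathways, read 6639, 6923, 7199 and 7641 at dawn and 4846, 3789, 4811 and 4840 at dusk. The groups did not overlap. The difference was -0.64 ± 0.09 (1.56-fold, adjusted p = 0.0683), and it was -0.66 in the first cycle and -0.62 in the second. Its promoter window holds the AGGTCA hexamer shown above.

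Elovl5, an elongase of polyunsaturated fatty acids, was 1817 to 2001 at dawn and 1204 to 1683 at dusk (-0.49 ± 0.11, adjusted p = 0.253). Me1, the malic enzyme that supplies NADPH, was 2882 to 3581 at dawn and 1632 to 2652 at dusk (-0.54 ± 0.15, adjusted p = 0.365). Neither of these overlapped. Scd2, a stearoyl-CoA desaturase, differed by -0.98 ± 0.28 with overlapping groups, and the member that was higher was Dgat1, which makes triglyceride (0.51 ± 0.15). Both were named after their values were seen. Pfkp, a phosphofructokinase of glycolysis, read 267, 282, 312 and 360 at dawn and 151, 159, 180 and 200 at dusk, without overlap (-0.82 ± 0.16, adjusted p = 0.195). Its other probe set, 97834_g_at, gave -0.66 (adjusted p = 0.410).

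G0s2, an inhibitor of the triglyceride lipase of fat cells, read 681, 806, 1106 and 995 at dawn and 1522, 1504, 1801 and 2763 at dusk. No pools of the groups overlapped, and the difference was 1.06 ± 0.21 (2.08-fold, adjusted p = 0.195). Cidec, a protein of the lipid droplet, was 955 to 1373 at dawn and 1596 to 2191 at dusk (0.69 ± 0.14, adjusted p = 0.202). Lpl, the lipase of circulating lipoproteins, was 4995 to 6176 at dawn and 7069 to 7950 at dusk (0.39 ± 0.08, adjusted p = 0.205). A further probe set of Lpl, 160083_at, gave 0.42 (adjusted p = 0.479). Cidec and Lpl were the 2 members of the adipocyte list past an unadjusted p of 0.05 of 16 tested (beside 8.82% of all genes). In that list 9 of 16 differences were below 0 (beside 57.8% of all genes). Its median was -0.04, it turned above 0 when arrays were centred on their medians, and its summed intensity overlapped between dawn (58815 to 62243) and dusk (56855 to 64457).

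Cyp2e1, a cytochrome P450 that oxidises small molecules, read 3073, 3673, 3024 and 2413 at dawn and 4715, 5461, 5105 and 5204 at dusk. All dusk pools were above all dawn pools, by 0.76 ± 0.12 (1.70-fold, adjusted p = 0.0847). Inmt, a methyltransferase of indole amines, was 292 to 630 at dawn and 773 to 977 at dusk (1.08 ± 0.21, adjusted p = 0.186). Mlf1, a myeloid leukaemia factor, was 109 to 202 at dusk, while 2 dawn pools lay at the floor and the others read 78.1 and 49.5 (1.62 ± 0.31, adjusted p = 0.186).

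**Figure D2:**
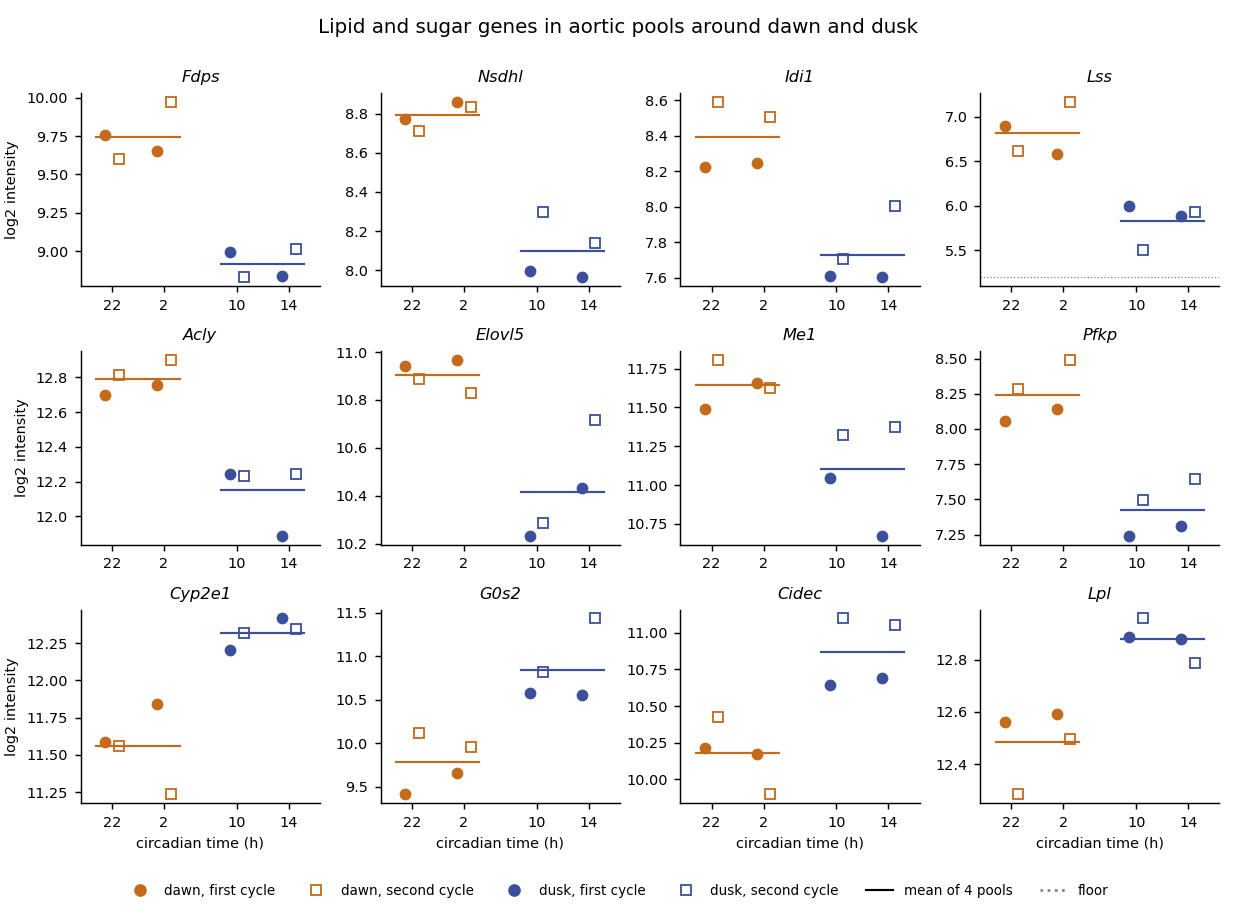
Log2 intensity of 12 lipid and sugar genes in the 4 dawn (orange) and 4 dusk (blue) pools by circadian time in hours, with circles for the first cycle, squares for the second and lines at the group means; the vertical axis differs between panels and does not start at 0. Dusk pools lie below dawn pools for Fdps, Nsdhl, Idi1, Lss, Acly, Elovl5, Me1 and Pfkp and above them for Cyp2e1, G0s2, Cidec and Lpl, with no overlap in any panel.

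The other genes with the smallest p at dusk below dawn belong to varied functions. Gjb5, a connexin, was 181 to 209 at dawn and 82.7 to 114 at dusk (-0.98 ± 0.18, adjusted p = 0.184). Grk5, a kinase that shuts off G protein-coupled receptors, was 233 to 270 at dawn and 133 to 157 at dusk (-0.80 ± 0.15, adjusted p = 0.186). Dhrs3, which reduces retinal, differed by -0.64 ± 0.12 and Nudt4, a phosphatase of inositol pyrophosphates, by -0.74 ± 0.14 (adjusted p = 0.186 each). Nudt4 was the member of this group that passed in the 12-pool fit, with an adjusted p of 0.0490. Wdr43, a factor of ribosome assembly, was lower at dusk by one probe set (-1.03 ± 0.21, adjusted p = 0.195) and not by the other (98973_at, 0.41, adjusted p = 0.647).

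Eln (92836_at), the gene of elastin, read 4410, 6909, 5169 and 6108 at dawn and 3755, 2958, 4116 and 3212 at dusk. Every dusk pool was below every dawn pool, and the difference was -0.68 ± 0.15 (1.60-fold, adjusted p = 0.247). It was larger between circadian times 14 and 2 (-1.08) than between 10 and 22 (-0.28). A second Eln probe set, 92207_at, gave a like difference with overlapping groups (-0.66, adjusted p = 0.452).

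Lox, which crosslinks elastin and collagen, was 130 to 324 at dawn and 88.7 to 172 at dusk (-0.81 ± 0.33, adjusted p = 0.523), and its other probe set gave -1.10 (160095_at, adjusted p = 0.410). The difference of Lox was -0.41 without CT34 and CT58. Ltbp2, a protein of microfibrils, was 203 to 250 at dawn and 132 to 181 at dusk, without overlap (-0.46 ± 0.16, adjusted p = 0.481). In the elastic fibre list 3 of 12 members were lower at an unadjusted p under 0.05 (beside 5.32% of all genes) and 0 higher. Of its differences 7 of 12 were below 0, a share like that of all genes, with a median of -0.13. This median turned above 0 without CT26 and with skeletal muscle markers as a covariate. Of 25 fibrillar collagen and proteoglycan genes 2 were lower at that p (beside 5.32% of all genes), and neither overlapped. They were Col5a1 (-0.35 ± 0.11, adjusted p = 0.417) and Mmp14, a membrane-bound matrix protease (-0.39 ± 0.13, adjusted p = 0.453). A second Col5a1 probe set, 101080_at, had overlapping groups and gave -0.14 (adjusted p = 0.913). In the basement membrane list 12 of 13 differences were below 0 (beside 57.8% of all genes), and Col4a1 was the member past an unadjusted p of 0.05 (-0.38 ± 0.15, adjusted p = 0.517).

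Most contractile genes of smooth muscle showed small differences. Acta2 read 4951, 6848, 5725 and 5516 at dawn and 4459, 4188, 5202 and 4234 at dusk, with CT58 inside the dawn range (-0.35 ± 0.11, adjusted p = 0.427). Tpm1, a tropomyosin, differed by -0.24 ± 0.10 (adjusted p = 0.523). Of 15 members 12 were below 0 (beside 57.8% of all genes), with a median of -0.11, which kept its sign in all 26 alternatives. The mean of the list differed by -0.003, and its highest member was Tpm2, another tropomyosin, at 0.997. In pooled tissue fewer cells of a type and less RNA per cell cannot be told apart. Mylpf, a myosin light chain of fast skeletal muscle held in this list, was the member that was higher at an unadjusted p under 0.05 (0.97 ± 0.39, adjusted p = 0.517). It read 2063 in CT34 and 1240 in CT58, the pools with the highest skeletal markers, against 379 to 822 in the others, and its difference was 0.30 without these pools.

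Of 20 vascular tone genes 15 were below 0 (beside 57.8% of all genes). The acid-sensitive potassium channel Kcnk3 was past an unadjusted p of 0.05 (-0.58 ± 0.23, adjusted p = 0.517; -0.91 without CT34 and CT58), and 1 of 20 is a smaller share than the 8.82% of all genes. In coagulation and fibrinolysis Anxa2, a receptor of plasminogen, was 1766 to 2037 at dawn and 1302 to 1718 at dusk, without overlap (-0.33 ± 0.10, adjusted p = 0.410). Plat, the tissue plasminogen activator, differed by -0.39 ± 0.16 (adjusted p = 0.530), and by -0.23 without CT38.

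Transport of ions and acid was the list outside the clock with the largest share of members past an unadjusted p of 0.05, at 6 of 13 (46.2%, beside 8.82% of all genes), 2 higher and 4 lower. Slc12a2, the sodium, potassium and chloride cotransporter, read 343, 422, 290 and 340 at dawn and 483, 533, 557 and 527 at dusk. The groups did not overlap, and the difference was 0.60 ± 0.13 (adjusted p = 0.247). Car4, a membrane-bound carbonic anhydrase, was 931 to 1063 at dawn and 640 to 774 at dusk by probe set 161818_f_at (-0.43 ± 0.10, adjusted p = 0.253). Its dim second probe set, 103046_at, gave -0.13 (adjusted p = 0.974). Slc4a2, an anion exchanger, was 158 to 251 at dawn and 107 to 142 at dusk (-0.71 ± 0.20, adjusted p = 0.387).

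Stress and hormone responses lay in part above dawn. Of 18 glucocorticoid-responsive genes and metallothioneins 4 were higher at dusk at an unadjusted p under 0.05 and 0 lower (beside 3.50% and 5.32% of all genes), the groups overlapped in every one of them, and the median was 0.36. Fkbp5, a co-chaperone of the glucocorticoid receptor, read 242, 205, 148 and 57.96 at dawn and 290, 1071, 159 and 667 at dusk. It was high in the pools at circadian time 14 and not at 10 (differences of 2.95 and 0.18 from the pools 12 h apart), with 1.57 ± 0.61 over the groups (adjusted p = 0.517). It was 2.56 without CT34 and CT58 and 0.62 with atrial markers as a covariate. Mt1, a metallothionein, differed by 0.65 ± 0.20 (adjusted p = 0.417) and Errfi1, an inhibitor of the EGF receptor, by 0.67 ± 0.24 (adjusted p = 0.485), though its second probe set, 93974_at, gave 0.03. Hspa1a, an inducible chaperone, was 55.7 to 136 at dawn and 91.7 to 399 at dusk (1.37 ± 0.44, adjusted p = 0.446). Of 26 cytosolic heat shock genes 2 were past an unadjusted p of 0.05 (7.69%, beside 8.82% of all genes). Both were higher (beside 3.50% of all genes in that direction), and the median of the list was 0.03. They were Hspa1a and Fkbp5, and Fkbp5 is counted in the glucocorticoid list as well.

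Immediate early genes, which respond to signals within minutes, had members in both directions. Ier3 was 24.3 to 122 at dawn and 73.9 to 208 at dusk (1.55 ± 0.47, adjusted p = 0.410), and Klf6 differed by 0.40 ± 0.13 (adjusted p = 0.454). Ier2 was lower at dusk without overlap (-0.55 ± 0.19, adjusted p = 0.466), and Fos, named after its values were seen, was -1.06 ± 0.41. Zfp36l1, which promotes decay of messages, was 965 to 1356 at dawn and 528 to 978 at dusk (-0.67 ± 0.19, adjusted p = 0.393), and differed by -0.36 without CT34 and CT58.

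In the respiratory chain, which makes most ATP, 1 of 39 genes was past an unadjusted p of 0.05 (Atp5j2, an ATP synthase subunit, at -0.39 ± 0.16, adjusted p = 0.530), and the median was -0.06. This is a smaller share than the 8.82% of all genes. Of 21 endoplasmic reticulum chaperones 2 were lower at that p (beside 5.32% of all genes), the collagen chaperone Serpinh1 (-0.47 ± 0.17, adjusted p = 0.490) and the disulphide isomerase Pdia6 (-0.54 ± 0.24, adjusted p = 0.534), with a median of -0.06. Of 28 antioxidant and detoxification enzymes 3 were higher and 0 lower (beside 3.50% and 5.32% of all genes), among them the glutathione transferases Mgst3 (0.35 ± 0.13, adjusted p = 0.480) and Gsta4 (1.19 ± 0.49, adjusted p = 0.521), with a median of -0.05. In glycolysis 3 of 17 were higher and 2 lower at that p (beside 3.50% and 5.32% of all genes), with a median of -0.02. These 4 medians turned above 0 when arrays were centred on their medians.

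Fatty acid oxidation had 1 of 21 genes past an unadjusted p of 0.05 (beside 8.82% of all genes), the thioesterase Acot1 (0.63 ± 0.26, adjusted p = 0.523), and haem metabolism had 1 of 11, the decarboxylase Urod (0.38 ± 0.16, adjusted p = 0.533), whose other probe set gave -0.50. Of 24 cell cycle genes 2 were higher (beside 3.50% of all genes), the cyclin Ccnd3 (0.92 ± 0.36, adjusted p = 0.517) and the inhibitor Cdkn1c (0.40 ± 0.17, adjusted p = 0.534). Without CT34 and CT58 the difference was -0.27 for Serpinh1, -0.25 for Pdia6, 0.20 for Mgst3, 0.24 for Acot1 and 0.23 for Cdkn1c. In inflammation and adhesion Ccl11, the chemokine eotaxin, was 5.11 to 61.8 at dawn and 67.8 to 94.9 at dusk, without overlap (0.88 ± 0.26, adjusted p = 0.408). The interferon receptor chain Ifngr1 lay the other way (-1.09 ± 0.47, adjusted p = 0.534).

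**Figure D3:**
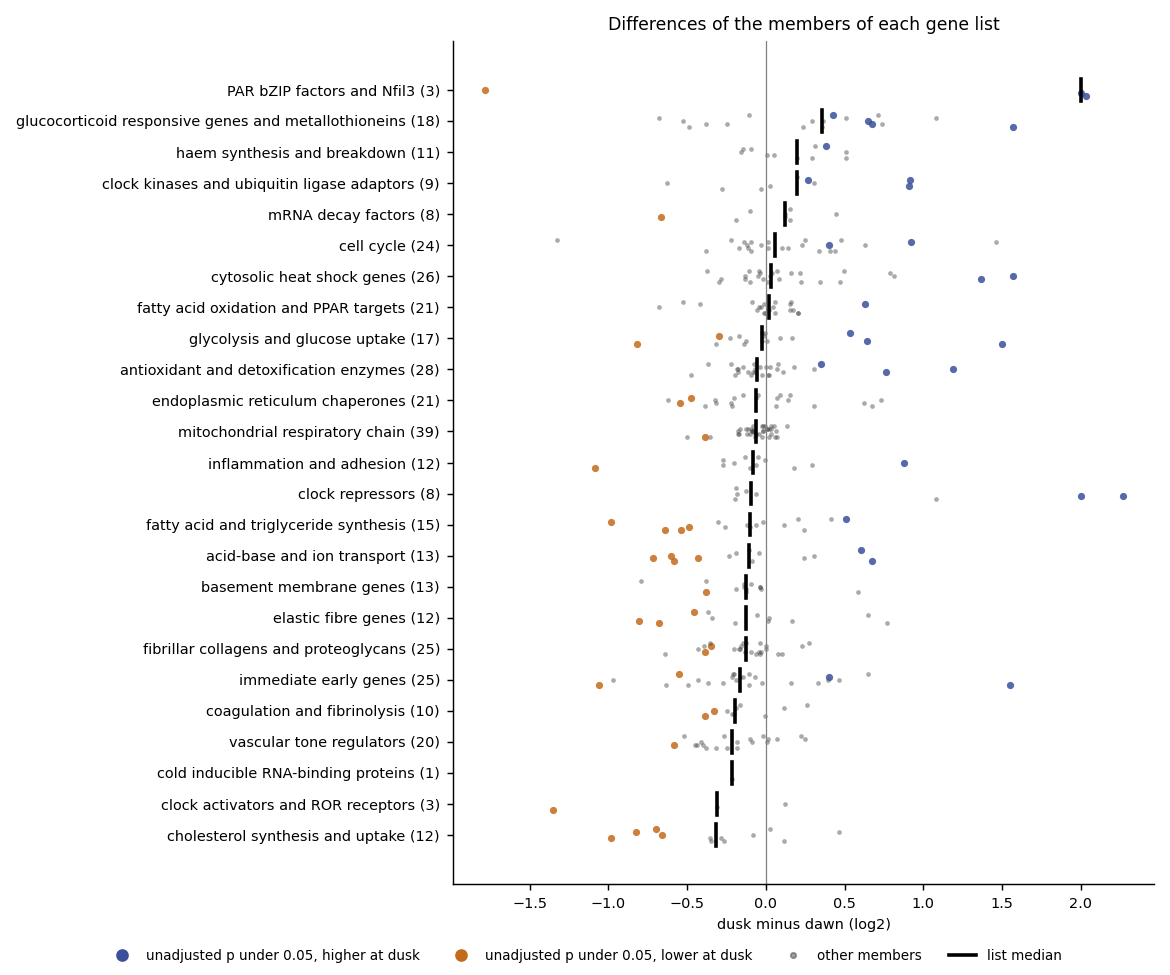
Difference of dusk minus dawn (log2) of each tested gene in 25 lists, with members at an unadjusted p under 0.05 in blue (higher at dusk) or orange (lower), other members in grey and the list median as a black bar; the number tested is in brackets. The 4 coloured cholesterol genes lie at -0.66 to -0.98, and most list medians are within 0.2 of 0.

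The 2 cycles share no pool, so each gives its own values of dusk minus dawn. Across 7453 probe sets the sign was the same in both cycles for 51.8%. Of the 390 probe sets at an unadjusted p under 0.05 in the first cycle 68.2% had the same sign in the second, and of the 849 in the second cycle 53.4% had the same sign in the first. Nr1d2 differed by 2.13 in the first cycle and 2.40 in the second, Per2 by 1.82 and 2.19, and Tef by 1.33 and 2.68. Fdps differed by -0.79 and -0.86 and Eln by -0.73 and -0.63. Dusk minus dawn differed between the cycles in 1 probe set (0.0134%), beside 590 (7.92%) at an unadjusted p under 0.05. It measures Sf3a2, a splicing factor subunit (92196_f_at). It was below 0 in CT34 and CT38 and 337 to 478 in the other 6 pools (3.06 ± 0.27, adjusted p = 0.0459). The next smallest p belonged to Adh1, an alcohol dehydrogenase (1.95 ± 0.24, adjusted p = 0.237), and to Uggt1, which checks glycoprotein folding (-3.63 ± 0.48, adjusted p = 0.237). Adh1 was low in CT46 and CT50 (186 and 227), against 467 to 686 in the other pools.

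The 2 circadian times within each group were compared in the same way. The difference between circadian times 14 and 2 departed from that between 10 and 22 in 1 probe set (0.0134%), beside 778 (10.4%) at an unadjusted p under 0.05. It measures Nr4a1, an orphan nuclear receptor and immediate early gene (102371_at). It read 810 and 1051 at circadian time 10 but 10.8 and 27.5 at circadian time 14. The dawn pools lay between these, at 343 and 296 at circadian time 22 and 511 and 328 at circadian time 2 (-5.01 ± 0.37, adjusted p = 0.00806). Its groups therefore overlapped. Aldoart2, an aldolase gene, had the next smallest p (-2.12 ± 0.25, adjusted p = 0.122), with 399 and 427 at circadian time 14 against 573 to 1176 in the other pools. Hspa8, a constitutive chaperone, had the reverse order (1.55 ± 0.21, adjusted p = 0.148), at 2727 and 3132 at circadian time 10 and 4162 and 5622 at circadian time 14.

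**Figure D4:**
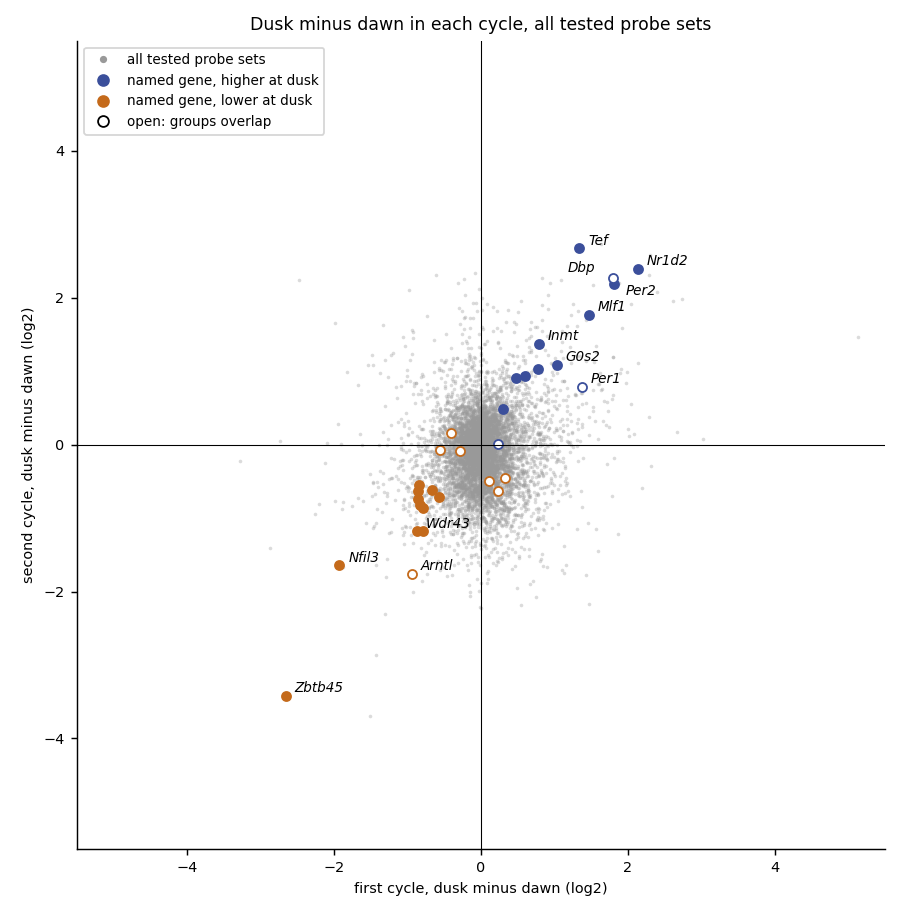
Dusk minus dawn (log2) in the second cycle against the first for all 7453 tested probe sets (grey), with the clock genes and the genes with the smallest p in colour by their direction over both cycles, open where the groups overlap. Nr1d2, Per2, Tef and Mlf1 lie at upper right and Zbtb45 and Nfil3 at lower left; members were picked on both cycles together, so their shared sign is no independent support.

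Markers of tissues next to the aorta were uneven between pools. By summed intensity the skeletal and thymocyte markers overlapped between the groups. Skeletal markers were 9167 to 18621 at dawn, and 12715 and 14202 in the dusk pools CT38 and CT62. Atrial markers did not overlap (9071 to 11172 at dawn, 11315 to 18130 at dusk). Skeletal muscle markers were higher at dusk in 18 of 19 genes (median 0.69), and Myh1, a fast myosin, read 3689 and 1884 in CT34 and CT58 against 962 to 1497 in the other pools. Glycolytic genes of muscle that were higher at dusk, namely Eno3 (0.64 ± 0.18), Pfkm (0.54 ± 0.15) and Pgam2 (1.50 ± 0.46), were highest in CT34 as well. Their differences without CT34 and CT58 were 0.35, 0.33 and 0.79, and that of Myh1 was 0.24. Without CT34 and CT58 the median of the skeletal list was below 0. Atrial markers were higher in 9 of 10 genes (median 0.40). Nppa, the atrial natriuretic peptide, read 1435 in CT38 and 117 to 562 in the other pools. Thymocyte markers were higher in 10 of 13 genes (median 0.20), with Dntt, an enzyme of receptor rearrangement, at 1083 in CT38 and 742 in CT62.

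Epithelial keratins of the oesophagus were also uneven. Krt4 read 1103, 1235, 138 and 5394 at dawn and 3255, 5677, 2874 and 5409 at dusk, so its groups overlapped through CT50 (2.04 ± 0.88, adjusted p = 0.534). Krt13 followed it (2.30 ± 0.88, adjusted p = 0.517), and Sftpc, a lung surfactant protein, differed by 1.48 ± 0.43 (adjusted p = 0.393). With the mean of the skeletal, thymocyte, atrial or lung and oesophagus markers as a covariate, Per2 differed by 2.19, 1.80, 1.64 and 1.85, and Fdps by -0.83, -0.83, -0.72 and -0.99. Nr1d2 differed by 2.11, 2.63, 2.70 and 2.08 in these fits. The differences of these 3 genes were thus about as large with each covariate, while their adjusted p lay between 0.0825 and 0.812. Without CT34 and CT58 they were 2.30 for Per2, -0.82 for Fdps and 1.77 for Nr1d2. Dbp moved further, from 1.08 with skeletal markers to 3.40 with atrial markers. It was 0.47 without CT34 and CT58, which is also its difference between circadian times 14 and 2.

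Cldn5, a tight junction protein of endothelium, read 542, 552, 267 and 185 at dawn and 27.7, 152, 60.4 and 116 at dusk. The groups did not overlap, and the difference was -2.14 ± 0.49 (adjusted p = 0.279), or -1.39 without CT34 and CT58. Endothelial markers as a list had 11 of 13 genes below 0 (beside 57.8% of all genes). Their median of -0.12 turned above 0 in the second cycle alone. Their summed intensity was 3259 to 4476 at dawn and 2890 to 3338 at dusk. Their part in the difference of Cldn5 was not tested. Of 12 markers of B cells and antigen-presenting cells 4 were lower at dusk at an unadjusted p under 0.05 and 0 were higher (beside 5.32% and 3.50% of all genes), with a median of -0.37. Cd74, the invariant chain of class II molecules, read 1973, 1521, 1851 and 2072 at dawn and 1448, 1317, 1304 and 1149 at dusk, without overlap (-0.50 ± 0.12, adjusted p = 0.264). H2-Aa, a class II chain, did not overlap either (-0.46 ± 0.14, adjusted p = 0.410), nor did C1qa, a complement gene of macrophages (-0.29 ± 0.10, adjusted p = 0.479). Cd79a, a part of the B cell receptor, differed by -1.33 ± 0.38 (adjusted p = 0.387). Among other tissue markers, Dio2, a deiodinase of brown fat, differed by 0.90 ± 0.35 (0.53 without CT34 and CT58), and Cd34, a surface protein of endothelium, by -0.32 ± 0.14 (-0.18 without them). Ly6d, a lymphoid marker, differed by 1.21 (1.87 without CT34 and CT58), and Myl7, an atrial light chain, by 0.67 (0.41 without CT38).

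**Figure D5:**
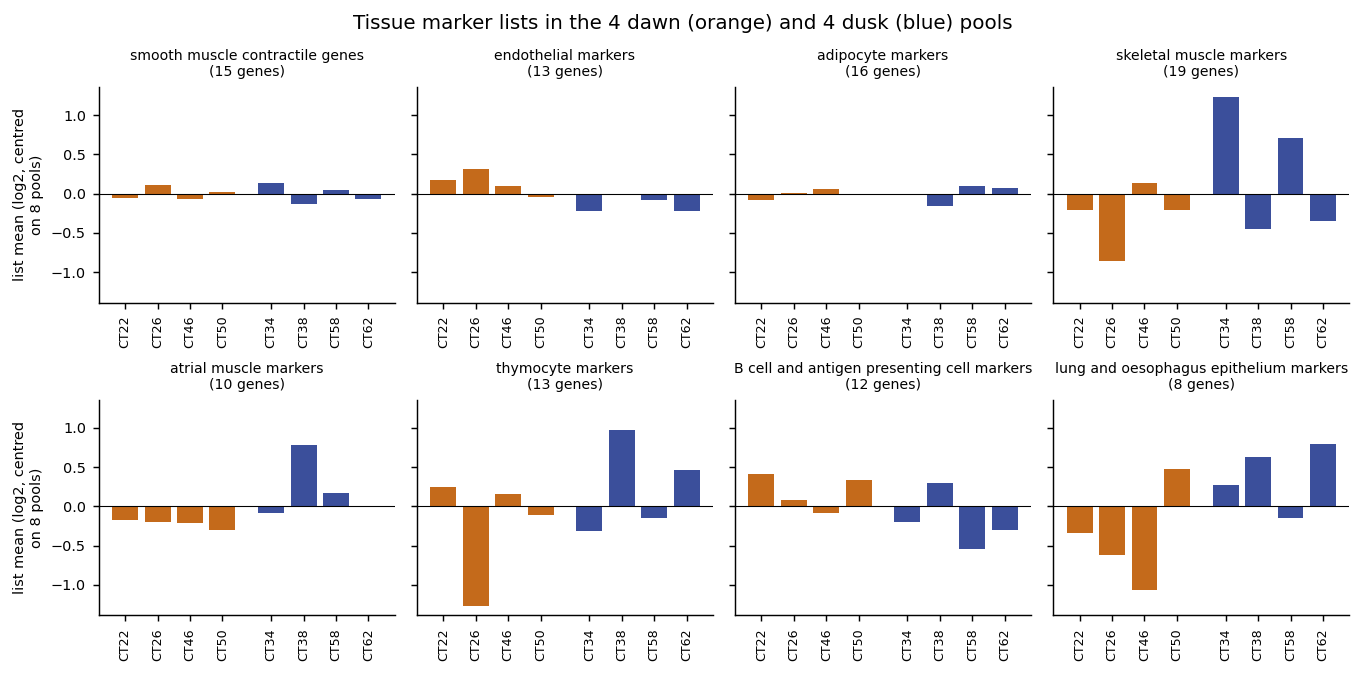
Mean log2 value of 8 marker lists in each of the 4 dawn (orange) and 4 dusk (blue) pools, centred on the 8 pools, with the number of genes in brackets; bars start at 0. Skeletal muscle markers are high in CT34 and CT58, atrial and thymocyte markers in CT38, and smooth muscle and adipocyte markers vary little. Thymocyte markers are low in CT26, and lung and oesophagus markers in CT46.

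Promoter letters were last counted over the genes that were past an unadjusted p of 0.05 with groups that did not overlap. Of 70 such genes higher at dusk with a promoter in the table, 17 held the E-box (24.3%) and 15 the AGGTCA hexamer (21.4%). Of 125 lower at dusk, 18 held the E-box (14.4%) and 15 the hexamer (12%). Over all tested genes the shares were 12.2% and 15.9%, and these counts are a description with no test.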

How the data were processed

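RNA of pooled mouse aortae was measured on 13 one-colour arrays, of which 8 (1 per pool) enter this comparison. The deposited values are linear intensities of probe sets, used as the authors scaled them; the software and settings behind them were not given in the sources. The mean after trimming was 200.03 to 200.04 on each of the 8 arrays. Of 12488 probe sets 66 controls were left out. A platform annotation paired 10833 of the rest with 1 gene and 396 with several, and did not list 1193. Gene identifiers of 10817 were found in RefSeq (GRCm38.p6).

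A floor of 36.7, the 20th percentile of all positive values, replaced lower intensities before conversion to log2. Probe sets with a mean over the 12 pools at or above the 40th percentile were kept. Differences are dusk minus dawn from limma 3.58.1 (R 4.3.3; lmFit, eBayes with an intensity trend, 6 residual degrees of freedom), two-sided, with Benjamini-Hochberg adjustment over 7453 probe sets and a threshold of 0.05. A count of genes uses the probe set with the highest mean. The procedure was tested on simulated data. The number of arrays limits the precision.

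Genes were named by a rule: all tested clock genes; genes past the threshold, up to 15 in each direction; otherwise the smallest p among genes whose groups do not overlap, up to 10 a direction in all; in every further list at most 4 that passed it, otherwise at most 3 at an unadjusted p under 0.05, or the one with the smallest p; and the 3 smallest p of each interaction test. Genes outside it are marked as named after their values were seen or are the extremes of a list. The comparison, the 37 gene lists and the rule were chosen with earlier results of these data known. Floors, filter, scaling, variance trend, blocks, covariates, single cycles and pools were varied.

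Pools 12 h apart share no label, animal or culture. The correlations of their deviations from the group means were -0.05, -0.10, -0.10 and -0.03, so they were not treated as pairs.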

Additional observations from a re-analysis of the deposited data

Results flagged for a closer look

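In 14 of the 183 groups of 4 pools examined, 1 pool lay far from the other 3 (its gap to the nearest, over the range of the group, was above Dixon's critical value). The ratio was taken on log2 values after the floor, so it is 1 wherever the other 3 pools lie at the floor. Chance gives a flag in about 1 group of 20 for unselected values without a floor. These genes were partly picked for a small p or groups without overlap, so that rate does not apply to them. The values printed below are deposited intensities.

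Among clock genes, Per1 read 52.5 in CT62 against 192 to 246 in the other dusk pools. Per2 read 63.1 in CT22 while the other 3 dawn pools lay at the floor. Cry2 read 221 in CT46 against 104 to 116 in the other dawn pools. Tef was low in CT38 (434, against 682 to 695 at dusk) and in CT46 (52.1, against 208 to 226 at dawn).

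Among metabolic genes, Acly read 3789 in CT38 against 4811 to 4846 in the other dusk pools. Dhrs3 read 428 in CT46 against 361 to 370 in the other dawn pools, and Acot1, a thioesterase of acyl-CoA, read 84.1 in CT26 against 116 to 122. Also at dawn, CT26 was low for Gjb5 (181, against 205 to 209) and for Ifngr1, an interferon receptor chain (77.7, against 258 to 286), and high for Ier3 (122, with the other 3 at the floor).

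At dusk, Col5a1 read 422 in CT62 against 361 to 369, and Sftpc read 103 in CT38 against 254 to 279. Car1, a carbonic anhydrase of red cells, read 66.2 in CT58 with the other 3 at the floor.

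The difference of dusk minus dawn was not alike in the 2 cycles for Sf3a2 (second minus first 3.06 on the log2 scale, adjusted p = 0.0459 in limma). For Nr4a1 the difference between circadian times 14 and 2 was below that between 10 and 22 by a log2 value of -5.01 (adjusted p = 0.00806).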

How the results depend on the processing

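Of 93 named genes followed through 27 settings, 82 kept their direction and 72 their side of the threshold in all of them. The 2 probe sets past an adjusted p of 0.05 became 0 with the floor at the 10th or the 30th percentile, with a pseudocount of 100, with no filter, in either cycle alone, and with skeletal, atrial or (chosen after seeing the data) lung and oesophagus markers as a covariate. They became 1 without the variance trend, with the cycle as a block or with thymocyte markers, 4 with the filter at the 60th percentile, 5 after quantile normalization (Per2, Fdps and Cyp2e1 added) and 16 with all 12 pools. With pools 12 h apart as a replicate block, a pairing that the labels do not give, 0 passed, with 241 higher and 306 lower at an unadjusted p under 0.05. Leaving out 1 pool gave 0 to 5, and 0 without CT58 or CT62. These were not always the same probe sets. In the fits without 1 pool that passed any, Zbtb45 passed each time, and the probe set higher at dusk in the main fit never did. Added were Rps13 without CT34, Rps29 without CT22, and Usp2 and Krt4 without CT50. Without CT26 the added ones were Krt12, Glycam1, Inmt and Cyp2e1. Without both CT34 and CT58, 2 passed, but these were Rps13 and Nr4a1, and neither passed in the main fit. The 675 probe sets at an unadjusted p under 0.05 became 390 in the first cycle alone and 379 with lung and oesophagus markers, and 480 to 778 without 1 pool. The 358 non-overlapping probe sets became 2484 and 3367 in single cycles, 1382 without CT34 and CT58 and 499 to 813 without 1 pool, since fewer pools overlap less. The 1 difference between cycles became 0 without the trend and 10 with no filter, and the 1 between the pairs of circadian times became 7 with no filter. With no filter Sf3a2 still passed (adjusted p = 0.00988), but Nr4a1 did not (adjusted p = 0.0587), so the 7 are other probe sets. The cause of these shifts was not tested.

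Signs turned in genes with small differences, and by a second probe set also in Zbtb45 and Wdr43, whose differences were large. Per3 was 0.0015 with centred arrays, 0.32 in the first cycle and -0.21 to 0.041 without 1 pool (above 0 without CT62 or CT46). Cry1 was 0.16 in the second cycle, 0.11 with skeletal markers, 0.054 with lung and oesophagus markers, 0.29 without CT34 and CT58, and -0.41 to 0.086 without 1 pool (above 0 without CT34 or CT22). Cry2 was 0.11 in the first cycle, 0.078 with lung and oesophagus markers and -0.30 to 0.061 without 1 pool (above 0 without CT46). Nr1d1 was 0.23 in the first cycle, 0.0032 with thymocyte markers and -0.41 to 0.13 without 1 pool (above 0 without CT62 or CT50). Bhlhe40 was 0.57 with atrial markers and -0.51 to 0.14 without 1 pool (above 0 without CT38 or CT46). Clock was 0.0066 without CT34 and CT58. Cirbp, a cold-inducible RNA-binding protein at -0.22, was 0.13 in the first cycle, 0.032 with lung and oesophagus markers, -0.63 without CT34 and CT58 and -0.41 to 0.074 without 1 pool (above 0 without CT62). Second probe sets gave 0.074 for Zbtb45, 0.41 for Wdr43, -0.50 for Urod and 0.41 for Cd34. The named ones gave -3.04 for Zbtb45, -1.03 for Wdr43, 0.38 for Urod, a haem enzyme, and -0.32 for Cd34.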

Other observations

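Over all probe sets, 39 had groups that did not overlap and a difference of at least 1 (log2), 18 higher at dusk and 21 lower. Fzd4, Pgd and Thra, also described below, had differences of less than 1 in size and are not among the 39. The genes in these paragraphs were chosen after their values were seen, and no hypothesis is attached to them. None passed the threshold over all probe sets in the fit of the 8 pools. Serpinb3a, a serine protease inhibitor of squamous epithelium, was 20.2 to 170 at dawn and 175 to 533 at dusk (2.28 ± 0.54), and lung and oesophagus markers were higher at dusk in 6 of 8 genes. Atp2a2, the calcium pump of the sarcoplasmic reticulum, was 70.9 to 256 at dawn and 275 to 429 at dusk (1.26 ± 0.40). Fzd4, a Wnt receptor, was 541 to 891 at dawn and 900 to 1307 at dusk (0.71 ± 0.18), and passed in the 12-pool fit (adjusted p = 0.0391).

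Among genes lower at dusk, Relb, an NF-kappaB subunit, was 98.7 to 223 at dawn and 54.1 to 75.2 at dusk (-1.24 ± 0.29). Tead4, a transcription factor of the Hippo pathway, was 132 to 251 at dawn and 65.9 to 92.6 at dusk (-1.11 ± 0.24), while its other probe set gave -0.16. Pth1r, the parathyroid hormone receptor, was 124 to 176 at dawn and 50.8 to 113 at dusk (-1.13 ± 0.27). Pgd, a dehydrogenase of the pentose phosphate pathway that yields NADPH, was 939 to 1822 at dawn and 426 to 905 at dusk (-0.97 ± 0.25), while its other probe set gave -0.37. Thra, the thyroid hormone receptor alpha, was 573 to 780 at dawn and 348 to 530 at dusk (-0.60 ± 0.15).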
